A study of Mus musculus with 16 samples.

Results

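The genes described here are 9 mouse genes of the interferon response and of antigen presentation: Irf9, Irf7, Rsad2, Bst2, Ifi35, Tap1, H2-K1, H2-Eb1 and Cd74. They were chosen by symbol, and 12 of the 20794 probes on the array carry their names, out of 9026 genes with a named row. Each was measured in the liver and brain of 4 males carrying HdhQ111/+, one copy of a knocked-in huntingtin allele with a lengthened CAG tract that models Huntington's disease. The mice were on the C57BL/6J background and 18 weeks old. The reference for each tissue was a pool of RNA from 4 wildtype C57BL/6J males of the same age. Each mouse and tissue had 2 two-colour cDNA arrays with the dyes swapped, which gave 8 arrays per tissue and 16 in all. RNA came from homogenised whole organs, and the wildtype pool was 1 control sample per tissue, so the spread among wildtype mice was not measured. No named probe of the huntingtin gene was analysed here, and the genotype was not checked on the arrays. An array ratio holds no expression level, so the tissue labels could not be checked against marker levels either.

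Interferons are secreted signals that cells release after sensing foreign or misplaced nucleic acid. Type I interferon signals through a complex that contains IRF9 and binds interferon-stimulated response elements in the promoters of antiviral genes. IRF7 is itself induced and amplifies the production of type I interferon. Interferon gamma raises the genes of antigen presentation, in which class I molecules display peptides pumped into the endoplasmic reticulum by TAP, and class II molecules display peptides from engulfed material. In the healthy brain these genes are mostly expressed by microglia and endothelium at low levels, and in the liver by Kupffer cells, endothelium and, for class I, hepatocytes.

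The promoters of 8 of the 9 genes were held in the RefSeq promoter table (GRCm38.p6), and the 250 bases before each transcript start were searched on both strands. The core of the interferon-stimulated response element was written as GAAA, any 2 bases and GAAA again, that of the gamma-activated site as TTCNNNGAA and the CCAAT box as CCAAT. The 8 genes had 10 promoter windows. The response element core was found in 2 of the 8 genes, Bst2 and Rsad2. That was 2 of the 10 windows, against 2.98% of all 32851 promoter windows. The gamma-activated site core was found in 1 of the 8 genes, Bst2, where it overlaps the response element core. That was 1 of the 10 windows, against 7.02% of all windows. The CCAAT box was found in 3 of the 8, H2-K1, Tap1 and H2-Eb1. That was 4 of the 10 windows, against 33.8% of all windows. Stretches of 4 promoters are shown, Bst2 and Rsad2 because they hold the response element core yet had values of opposite sign in liver, and Tap1 and H2-K1 because they had the lowest mean in liver and the smallest p in brain among the 9 genes. Capitals mark the response element core, overlapping copies of it or its reverse complement, in Bst2 (chr8:71537562-71537627, minus strand) and Rsad2 (chr12:26456538-26456597, minus strand), and CCAAT or its reverse complement in Tap1 (chr17:34187309-34187363, plus strand) and H2-K1 (chr17:34000348-34000388, minus strand).
Bst2: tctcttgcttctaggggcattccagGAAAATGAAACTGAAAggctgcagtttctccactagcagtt
Rsad2: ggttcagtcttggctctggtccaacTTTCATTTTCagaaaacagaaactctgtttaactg
Tap1: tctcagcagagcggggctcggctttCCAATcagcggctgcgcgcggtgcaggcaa
H2-K1: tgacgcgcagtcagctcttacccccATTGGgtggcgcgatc
A match is a description of these letters only, and binding was not measured.

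All values below are normalized log2 ratios as the authors deposited them, and a mouse's value is the mean of its dye-swapped pair. A value above 0 likely means more RNA in HdhQ111 than in the wildtype pool, because the labels put the mouse in channel 1, but no header states the direction. Over 15318 probes, Spearman's rho between liver and brain was 0.417 for the gap between the dye orientations and -0.029 for the mean of each pair. Each array held 19530 to 20584 values, its median lay between -0.128 and 0.246, and its interquartile range between 0.383 and 1.275. In every mouse and tissue the median was higher on the array with mutant RNA in Cy5. The liver medians ran from -0.004 to 0.036 in Cy5 and from -0.06 to -0.041 in Cy3. The brain medians ran from -0.064 to 0.246 in Cy5 and from -0.128 to 0.002 in Cy3. Gene names sit 11 rows from the values: probes of one gene correlated by 0.0545 on average at that offset (2953 pairs), by -0.0002 at offset 0 and by at most 0.022 at the other offsets of the 121 tried. Every name here rests on that offset, which no source states. Where RNA of a whole organ is compared, fewer cells of a type and less RNA per cell cannot be told apart.

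No member passed the test in either tissue. With limma over all genes and Benjamini-Hochberg adjustment at 0.05, 0 of the 9 genes passed in liver, where 0 of 8828 genes passed (0.0%), and 0 of the 9 in brain, where 0 of 8621 passed (0.0%). At an unadjusted p under 0.05 the liver held 4 of the 9 (Irf9, Rsad2, Bst2 and Tap1), against 7.6% of all genes, and the brain 2 of the 9 (Ifi35 and H2-K1), against 3.12%. In liver 7 of the 9 means were below 0, against 56.8% of all genes, and in brain 5 of the 9, against 43.1%. The median of the 9 means was -0.21 in liver and -0.03 in brain, where all genes had medians of -0.03 and 0.02. In liver Irf9, Bst2 and Tap1 were below 0 in every mouse, as were 14.1% of all genes, and Rsad2 was above 0 in every mouse, as were 7.17%. In brain Ifi35 and H2-Eb1 were below 0 in every mouse with a value, as were 4.65% of all genes, and H2-K1 was above 0 in every mouse, as were 6.59%. The 9 genes were proposed with results of these data known, so these shares describe them and are no test of the group. An exact sign-flip permutation test over 4 mice cannot give a two-sided p below 0.125.

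**Figure D1:**
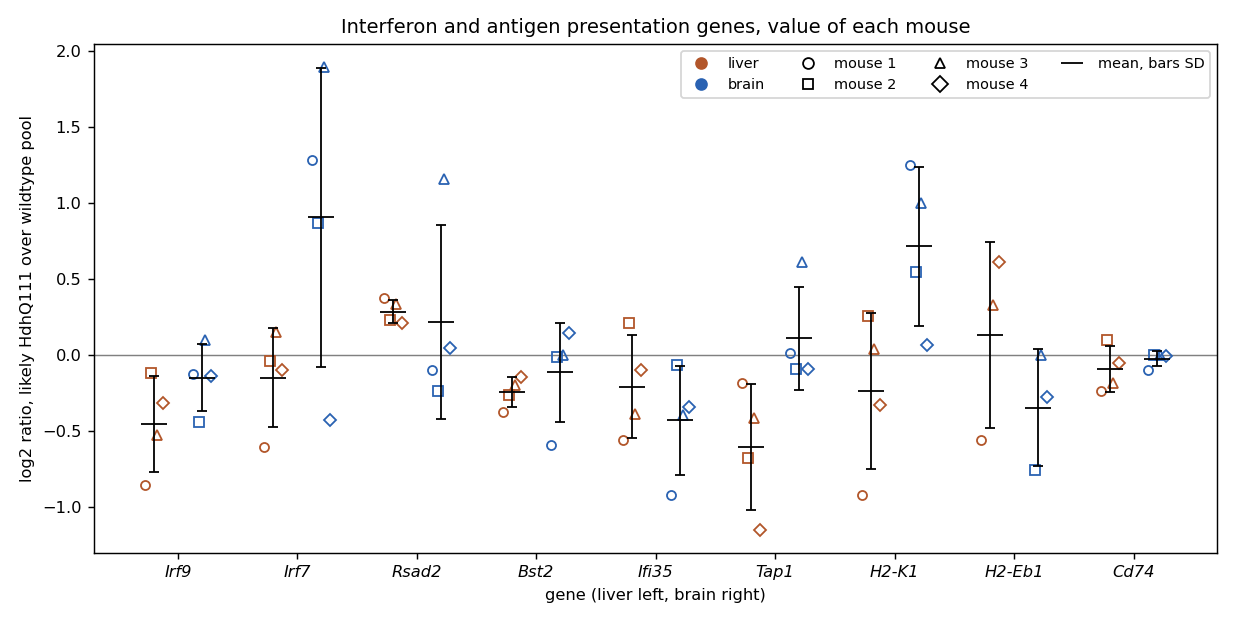
Log2 ratio (vertical axis) of each of the 9 genes in each mouse, with liver in brown on the left and brain in blue on the right of each gene; symbols are mice, and bars are the mean and SD over mice. Tap1 in liver lies below 0 in all 4 mice and H2-K1 in brain above 0 in all 4, while Irf7 in brain spans -0.43 to 1.90.

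Of the regulators, Irf9 encodes the DNA-binding subunit of the complex that answers type I interferon. In liver it was at -0.86, -0.12, -0.53 and -0.32 in mice 1 to 4, a mean of -0.46 ± 0.32 (SD, n = 4; limma adjusted p = 0.598). All 8 liver arrays were below 0, so both dye orientations pointed the same way in every mouse. In brain it was at -0.12, -0.44, 0.10 and -0.14, a mean of -0.15 ± 0.22 (n = 4). The brain arrays split by dye: the 4 with mutant RNA in Cy5 averaged 0.64 and the 4 with it in Cy3 averaged -0.94. The brain mean of Irf9 is thus small beside the gap between its dye orientations.

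Irf7, the inducible regulator of type I interferon production, had the widest spread of the 9 genes in brain. Its brain values were 1.28, 0.87, 1.90 and -0.43 in mice 1 to 4, a mean of 0.91 ± 0.98 (n = 4; limma adjusted p = 0.999). Mice 1 to 3 were high and mouse 4 lay below 0. The high values came from the arrays with mutant RNA in Cy5, at 3.14, 1.08, 3.32 and 0.19, whereas those with it in Cy3 were at -0.57, 0.66, 0.47 and -1.05. In liver it was at -0.61, -0.04, 0.15 and -0.10, a mean of -0.15 ± 0.32 (n = 4). Without mouse 1 the liver mean was 0.0030.

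Of the antiviral effectors, Rsad2 encodes viperin, an enzyme that makes a chain-terminating nucleotide and blocks the replication of many viruses. Its liver values were 0.37, 0.23, 0.33 and 0.21 in mice 1 to 4, a mean of 0.29 ± 0.08 (n = 4; limma adjusted p = 0.598), the highest liver mean of the 9 genes. Its pair of probes averaged 0.16 ± 0.15 (n = 4) and 0.43 ± 0.09 (n = 3), and the value of mouse 1 rests on the first probe alone. The liver mean was 0.04 on the arrays with mutant RNA in Cy5 and 0.41 on those with it in Cy3, and the arrays of a pair shared a sign in 1 of 4 pairs of the first probe and 1 of 3 of the second. In brain it was at -0.10, -0.24, 1.16 and 0.05, a mean of 0.22 ± 0.64 (n = 4). The brain mean rests on mouse 3, and without that mouse it was -0.10. The second probe had both arrays in 2 brains only, at 0.10 in mouse 1 and -0.07 in mouse 4.

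Bst2 encodes tetherin, which holds budding enveloped viruses at the cell surface. The livers were at -0.38, -0.26, -0.20 and -0.15 in mice 1 to 4, a mean of -0.25 ± 0.10 (n = 4; limma adjusted p = 0.598). All 4 liver values were below 0 and close together, but the orientations differed: arrays with mutant RNA in Cy5 averaged 0.09 and those with it in Cy3 -0.58. In brain it was at -0.60, -0.01, 0.00 and 0.15, a mean of -0.12 ± 0.33 (n = 4). The value of mouse 3 was the mean of arrays at -1.92 and 1.92. Without mouse 1 the brain mean was 0.04.

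Ifi35 encodes an interferon-induced leucine zipper protein that binds NMI. It was the lowest of the 9 genes in brain, at -0.93, -0.07, -0.39 and -0.34 in mice 1 to 4, a mean of -0.43 ± 0.36 (n = 4; limma adjusted p = 0.999). With a single array allowed where the other was empty, H2-Eb1 was lower in brain, at -0.54 against -0.43 for Ifi35. All 4 brains of Ifi35 were below 0, yet the arrays with mutant RNA in Cy5 averaged -0.95 and those with it in Cy3 averaged 0.08. Its liver values were -0.56, 0.21, -0.39 and -0.10, a mean of -0.21 ± 0.34 (n = 4). Mouse 1 was the lowest in both tissues and mouse 2 the highest in both.

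Of the class I genes, Tap1 encodes a chain of the peptide transporter of the endoplasmic reticulum and shares a two-way promoter region with Psmb9, a subunit of the immunoproteasome. In liver Tap1 was at -0.19, -0.68, -0.41 and -1.15 in mice 1 to 4, a mean of -0.61 ± 0.41 (n = 4; limma adjusted p = 0.598), or 0.656 of the pool on the linear scale. Of its 8 liver arrays 7 were below 0, the exception being mouse 1 with mutant RNA in Cy5 at 0.12. In brain it was at 0.01, -0.09, 0.61 and -0.09, a mean of 0.11 ± 0.34 (n = 4). Mouse 3 was the one high brain, and without it the mean was -0.06. Psmb9 had means of -0.15 ± 0.19 in liver and 0.04 ± 0.26 in brain (n = 4 each).

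H2-K1 encodes the heavy chain of a classical class I molecule, whose sequence is close to that of other class I genes, so the probe may also report on those. In brain it was at 1.25, 0.55, 0.998 and 0.06 in mice 1 to 4, a mean of 0.71 ± 0.52 (n = 4; limma adjusted p = 0.999), or 1.64 times the pool on the linear scale. The value of mouse 1 joined arrays at -1.43 with mutant RNA in Cy5 and 3.93 with it in Cy3, the largest gap of any pair among these probes. In the other mice the Cy5 arrays were at 0.31, 1.43 and -0.09 and the Cy3 arrays at 0.79, 0.57 and 0.21. Over all 4 mice the Cy5 arrays averaged 0.05 and the Cy3 arrays 1.38. In liver it was at -0.92, 0.25, 0.04 and -0.33, a mean of -0.24 ± 0.51 (n = 4), with mice on both sides of 0. The liver mean was -0.01 without mouse 1 and -0.40 without mouse 2.

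Of the class II genes, H2-Eb1 encodes the beta chain of the E molecule, for which C57BL/6 mice lack a functional alpha chain. The livers were at -0.56, 0.33 and 0.61 in mice 1, 3 and 4, a mean of 0.13 ± 0.61 (n = 3). In brain it was at -0.76, -0.0035 and -0.28 in mice 2, 3 and 4, a mean of -0.35 ± 0.38 (n = 3; limma adjusted p = 0.999). The liver of mouse 2 and the brain of mouse 1 each lacked an array and were left out of the fits. With single arrays let in, that of the mouse 1 brain at -1.10, the brain mean of H2-Eb1 was -0.54. Its brain arrays averaged 0.47 with mutant RNA in Cy5 and -1.15 with it in Cy3.

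Cd74 encodes the invariant chain that guides class II molecules to the endosome, and its means were the nearest to 0 of the 9 genes in both tissues. With its probes averaged it was at -0.24, 0.10, -0.18 and -0.05 in the livers of mice 1 to 4 and at -0.10, 0.00, -0.0002 and -0.01 in their brains. The means were -0.09 ± 0.15 in liver and -0.03 ± 0.05 in brain (n = 4 each; limma adjusted p = 0.699 in liver and 0.999 in brain). The probes taken one by one averaged 0.05, -0.13 and -0.20 in liver and 0.09, -0.11 and -0.04 in brain, so they did not share a direction. In the brain of mouse 4 the first probe lacked an array, and the value there is the mean of the other probes. With the remaining array of that pair let in, at -2.09, the brain mean of Cd74 was -0.20, farther from 0 than those of Rsad2 (0.08) and Tap1 (0.11), and the median of the 9 genes in brain was -0.12.

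Mouse 1 set the low end in liver. It was the lowest of the mice with a value for 7 of the 9 genes in liver, against 34.5% of 7503 genes with all values, and its median over the 9 genes was -0.56. The medians of mice 2 to 4 were 0.03, -0.18 and -0.10. The mouse 1 liver also had the widest spread over all genes, an interquartile range of 0.51 against 0.21 to 0.36 in the other livers. In brain, mouse 3 was the highest for 5 of the 9 genes (Irf9, Irf7, Rsad2, Tap1 and H2-Eb1), against 45.6% of all genes. The median over all genes was 0.16 in that brain, against -0.10 to 0.04 in the others. The part of array spread and of array medians in these orders was not tested. Without mouse 1 the median of the members in liver was -0.07.

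The spread of the members was somewhat above that of other genes. The median SD over mice was 0.32 for the 9 genes against 0.23 for all genes in liver, and 0.36 against 0.28 in brain. The median gap between the arrays of a dye-swapped pair was 0.51 for the members' probes against 0.49 for all probes in liver, and 0.58 against 0.57 in brain. Both arrays of a pair had the same sign in 26 of 46 pairs of the members in liver (56.5%, against 40.3% of all pairs) and in 17 of 44 in brain (38.6%, against 43.6%). Of the members' array values 2 in liver and 4 in brain were empty, and no ratio exceeded 3.93 in size.

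**Figure D2:**
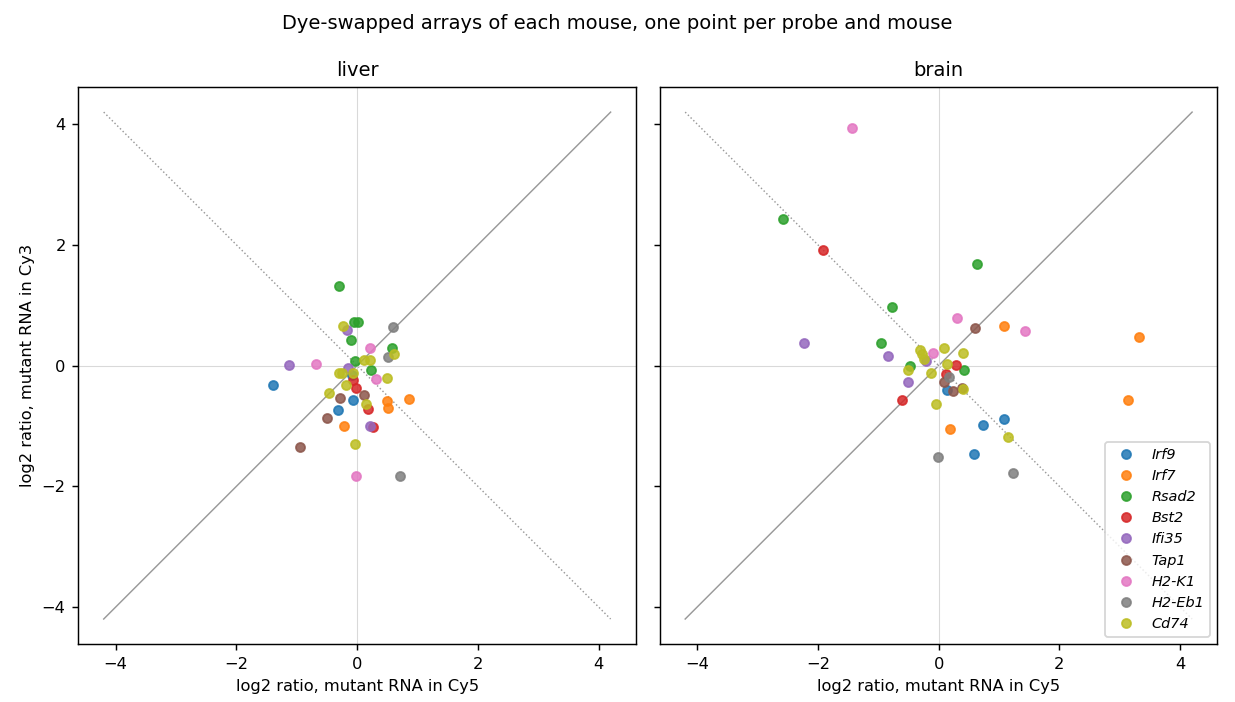
Log2 ratio on the array with mutant RNA in Cy5 (horizontal) and in Cy3 (vertical), one point per probe and mouse, coloured by gene, with liver left and brain right; the solid line marks equal ratios and the dotted line equal size with opposite sign. The liver points of Irf9 and Tap1 lie mostly at the lower left, whereas in brain many points follow the dotted line, and H2-K1 of mouse 1 stands at -1.43 and 3.93.

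The liver-minus-brain difference asks whether a gene's ratio to the pool differed between tissues of the same mice. With limma over 8543 genes, 1 gene passed (0.0117%), and it was none of the 9. That fit did not use which mouse a value came from. The SE and p given with a difference are thus not those of the differences within mice. At an unadjusted p under 0.05 the 9 genes held 3 (Irf7, Tap1 and H2-K1), against 6.88% of all genes. Of the 9 differences 6 were below 0, against 57.8% of all genes, with a median of -0.13, against -0.05 over all genes.

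Tap1 was lower in liver than in brain in every mouse, with differences of -0.20, -0.59, -1.03 and -1.06 in mice 1 to 4. The mean was -0.72 ± 0.25 (SE; limma adjusted p = 0.708), with Tap1 at -0.61 in liver and 0.11 in brain. All 4 livers lay below all 4 brains for Tap1 alone of the 9 genes, a separation seen in 3.69% of all genes. H2-K1 was also lower in liver in every mouse, at -2.17, -0.29, -0.96 and -0.39, a mean of -0.95 ± 0.33 (SE; limma adjusted p = 0.708). Its livers and brains overlapped, since the liver of mouse 2 was at 0.25 and the brain of mouse 4 at 0.06. Without mouse 1 the mean difference of H2-K1 was -0.55. A difference below 0 in every mouse was found in 13.5% of all genes.

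Irf7 had the largest mean difference, -1.06 ± 0.45 (SE; limma adjusted p = 0.708), with -1.89, -0.91 and -1.75 in mice 1 to 3 and 0.33 in mouse 4. Irf9 differed by -0.74, 0.32, -0.63 and -0.18, a mean of -0.31 ± 0.19 (SE). Ifi35 was higher in liver than in brain in every mouse, at 0.37, 0.28, 0.0035 and 0.24, a mean of 0.22 ± 0.23 (SE), and H2-Eb1 in the 2 mice with both tissues, at 0.33 and 0.89. Such a direction in every mouse was seen in 6.1% of all genes. Rsad2 (0.07 ± 0.29), Bst2 (-0.13 ± 0.18) and Cd74 (-0.07 ± 0.12, SE each) had mice on both sides of 0. None of these differences passed the adjusted test.

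**Figure D3:**
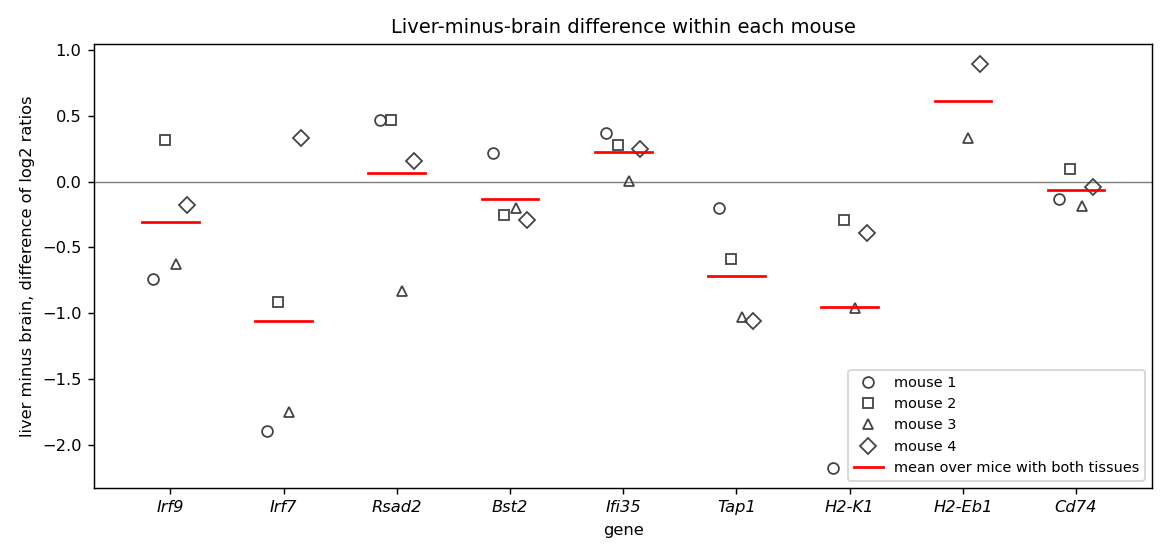
Liver value minus brain value (vertical axis, difference of log2 ratios) of each gene within each mouse; symbols are mice and red lines the mean over mice with both tissues. Tap1 and H2-K1 are below 0 in all 4 mice, H2-K1 reaches -2.17 in mouse 1, and H2-Eb1 has 2 mice only.

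Around the 9 genes, 5 lists of other pathway genes gave 82 genes tested in liver and 83 in brain, and 0 passed limma's adjusted test in either tissue. At an unadjusted p under 0.05 there were 9 in liver, against 7.6% of all genes, and 3 in brain, against 3.12%. Over the 5 lists together 56 of 82 genes were below 0 in liver (68.3%, median -0.10) and 36 of 83 in brain (43.4%, median 0.03). All genes had 56.8% below 0 in liver and 43.1% in brain.

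The class I list stood lowest in liver. Of its 13 genes 12 were below 0, with a median of -0.22, against 8 of 13 in brain with a median of -0.03. The liver genes included H2-T23 at -1.15 ± 5.76 and Erap1 at 2.78 ± 6.21 (n = 3 each). With ratios over 10 in size removed, 11 of 11 were below 0 in liver and 7 of 13 in brain. Without mouse 1 the liver had 10 of 11 below 0 (median -0.14) and the brain 3 of 12 (median 0.13), so the direction in brain turned. Without mouse 3 the liver median was also -0.14. Subunits of the immunoproteasome and its activator, which cut peptides for class I molecules, were among them: Psmb10 was at -0.25 ± 0.08 and Psme1 at -0.26 ± 0.10 in liver (n = 4 each, below 0 in every mouse; limma adjusted p = 0.598 each). In brain Psmb10 was at 0.24 ± 0.23 and Psme1 at -0.03 ± 0.20. Psmb10 had the smallest p among the other pathway genes for the tissue difference, -0.49 ± 0.14 (SE; limma adjusted p = 0.708), below 0 in all 4 mice. The liver count turned with the dye: 5 of 13 were below 0 on the arrays with mutant RNA in Cy5 and 12 of 13 on those with it in Cy3. Hepatocyte markers split the same way, with 7 of 8 below 0 in liver (median -0.18), 0 of 9 on the Cy5 arrays and 8 of 9 on the Cy3 arrays, and their part in the class I count was not tested. Array medians over all probes were also higher on the Cy5 arrays in every mouse. Their part in the dye splits of this and the following lists was not tested.

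The class II list had 8 of 13 genes below 0 in liver and 4 of 12 in brain, with medians of -0.08 and 0.08. The direction turned with the dye in both tissues, where the array medians over all probes were higher on the Cy5 arrays too. List medians in liver were 0.02 on the Cy5 arrays and -0.19 on the Cy3 arrays. In brain they were 0.19 (1 of 12 below 0) and -0.13 (7 of 13). H2-Ab1, the beta chain of the A molecule, was at -0.47 ± 0.38 in liver, below 0 in every mouse, and at -0.01 ± 0.17 in brain (n = 4 each; limma adjusted p = 0.598 in liver). Its tissue difference was -0.46 ± 0.21 (SE; limma adjusted p = 0.708). Of the induced effectors 21 of 33 were below 0 in liver and 14 of 33 in brain, with medians of -0.08 and 0.05. The GTPase Igtp was at -0.34 ± 0.24 in liver and 0.13 ± 0.30 in brain, and the nucleic acid binding gene Ifi205 at -0.38 ± 0.29 in liver (n = 4 each). Ifi27l2a was at 0.51 ± 0.22 in brain (n = 3). Of the 33 effectors in liver, 13 were below 0 on the Cy5 arrays and 24 on the Cy3 arrays. Their brain median was 0.02 on the Cy5 arrays and -0.02 on the Cy3 arrays.

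Genes of interferon signalling had 10 of 15 below 0 in liver and 6 of 17 in brain, with medians of -0.03 and 0.02. In liver the median was 0.02 without mouse 1 (7 of 15 below 0) and 0.05 on the Cy5 arrays (7 of 16), and in brain it was -0.09 on the Cy3 arrays (10 of 18). The factor Irf8, which myeloid cells need for their development, was at 0.29 ± 0.14 in liver, above 0 in all 4 mice (limma adjusted p = 0.598), and the kinase Jak1 at 0.44 ± 0.30 in brain, also above 0 in all 4 (limma adjusted p = 0.999). Jak1 was at -0.10 in liver, and its tissue difference was -0.54 ± 0.21 (SE; limma adjusted p = 0.708). Of the sensing genes 5 of 8 were below 0 in liver and 4 of 8 in brain. In liver 2 of 8 were below 0 on the Cy5 arrays (median 0.11) and 7 of 8 on the Cy3 arrays (median -0.30), and in brain 5 of 7 were below 0 without mouse 1 (median -0.02). Ticam1, the adaptor of Toll-like receptor 3, was at -0.54 ± 0.37 in brain, below 0 in all 4 mice. The kinase Ikbke was at -0.27 in liver and 0.47 ± 0.50 in brain (n = 3), and the adaptor Myd88 at 0.18 in liver and -0.20 in brain. Lgals9, which encodes galectin-9, was at 0.21 ± 0.15 in brain.

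**Figure D4:**
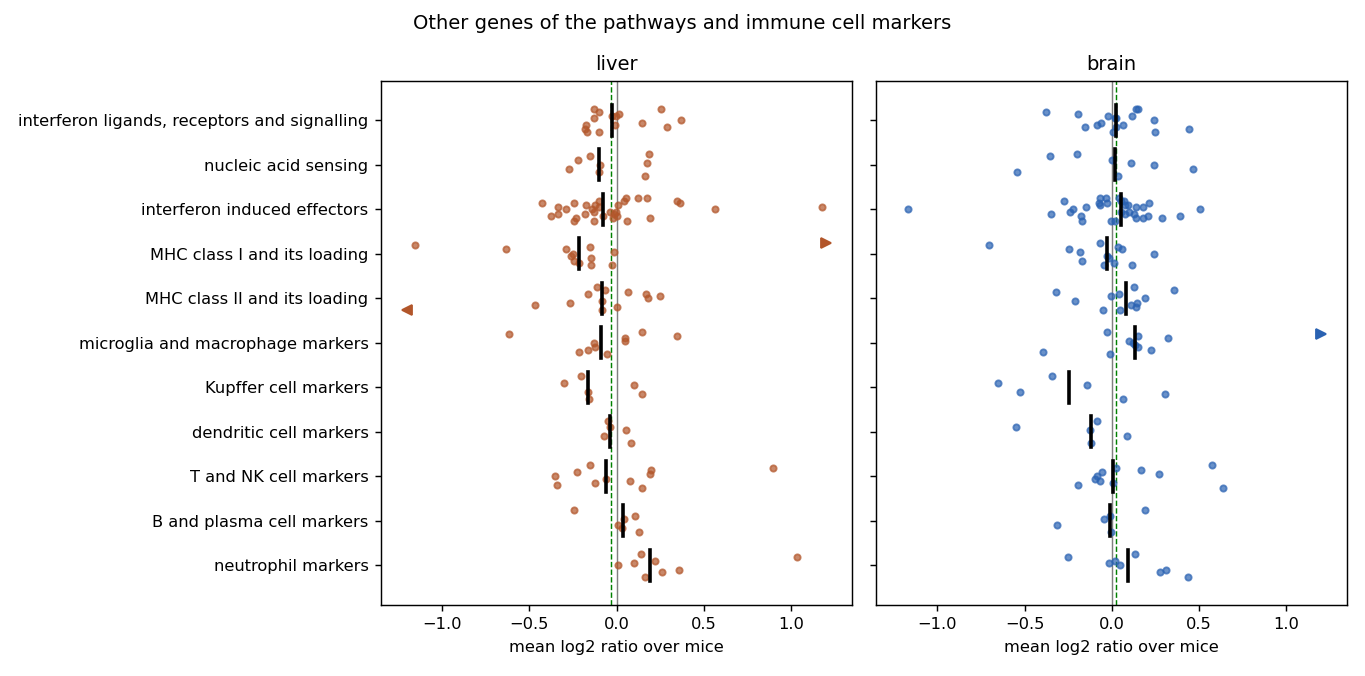
Mean log2 ratio over mice (horizontal axis) of each other pathway gene and immune cell marker, one point per gene, liver left and brain right; black bars are list medians, the green dashed line is the median of all genes, and triangles mark means that lie farther out than plotted. The class I list has its median at -0.22 in liver, and the neutrophil markers at 0.19.

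Markers of the immune cells that express these genes did not follow 1 direction. Microglia and macrophage markers had 6 of 10 below 0 in liver (median -0.09) and 3 of 11 in brain (median 0.13). In brain 2 of 11 were below 0 on the Cy5 arrays (median 0.37) and 7 of 11 on the Cy3 arrays (median -0.12), and in liver 4 of 11 on the Cy5 arrays and 4 of 10 on the Cy3 arrays. Laptm5 in that list was at 2.48 ± 3.76 in brain, where 1 mouse was at 8.01, and the source of that value was not tested. Kupffer cell markers had 4 of 6 below 0 in liver and 4 of 6 in brain, with Cd5l at -0.30 ± 0.40 in liver and -0.65 ± 1.21 in brain (n = 4 and 3). Dendritic cell markers had 3 of 5 below 0 in liver and 4 of 5 in brain, with Clec9a at -0.55 ± 0.37 in brain. T and NK cell markers had 6 of 11 below 0 in liver and 5 of 11 in brain, with Cd5 at 0.90 ± 0.73 (n = 3) and Cd8b1 at -0.35 ± 0.33 in liver. B and plasma cell markers had 1 of 6 below 0 in liver and 4 of 5 in brain. Fcrla was the exception in both tissues. It was the only one below 0 in liver, at -0.24, and the only one above 0 in brain, at 0.19. Neutrophil markers had 0 of 8 below 0 in liver (median 0.19) and 2 of 8 in brain (median 0.09), with S100a8 at 1.03 ± 0.98 in liver and -0.25 in brain. On single orientations 3 of 8 neutrophil markers were below 0 in liver with mutant RNA in Cy5 and 1 of 8 with it in Cy3, and in brain 4 of 8 (median -0.0068) and 1 of 8. In these 6 marker lists 0 genes passed limma's adjusted test in either tissue, and the part of these cells in the values of the 9 genes was not tested. Endothelial markers had 4 of 10 below 0 in liver (median 0.13) and 4 of 10 in brain (median 0.09). Of them 0 passed the adjusted test in either tissue, and the part of endothelium was not tested either.

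The remaining markers with the largest means mostly had an SD above the mean. In liver Trem2 was at 0.34 ± 0.65, Folr2 at -0.21 ± 0.33 (n = 3), Ccr7 at 0.08 ± 0.25, Flt3 at -0.07 ± 0.24, Blk at 0.13 ± 0.38 and Lcn2 at 0.36 ± 0.52. In brain Mrc1 was at -0.40 ± 7.15 (n = 3), with its mice spread from -6.97 to 7.22. Also in brain, Clec4f was at -0.52 ± 1.12, Zbtb46 at -0.13 ± 0.30, Cd2 at 0.64 ± 2.53, Cd3e at 0.57 ± 0.81, Cd79b at -0.31 ± 0.78, Camp at 0.44 ± 0.45 and Lcn2 at 0.31 ± 0.74 (n = 3). Fcrla was below 0 in every liver, as were 14.1% of all genes, and above 0 in every brain, as were 6.59% (SD 0.18 in liver and 0.17 in brain, n = 4 each). All its livers thus lay below all its brains, a separation seen in 3.69% of all genes. It was named for its large mean, and it ran against the other B and plasma cell markers in both tissues. Limma's adjusted p for its tissue difference was 0.708.

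Over the 8 mouse values, the genes whose profile was nearest to the mean of the 9 were Fbxo16 (Pearson's r 0.969), Txndc5 (0.969), Gatad1 (0.962), Inppl1 (0.960) and Nipsnap2 (0.956), out of 7495 genes with all 8 values. The 8 values come from 4 mice and share 2 pools, and the mean profile was highest in the brain of mouse 3 (0.49) and lowest in the liver of mouse 1 (-0.44).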

How the data were processed

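Total RNA was labelled indirectly with Cy3 or Cy5 and hybridised against the wildtype pool, per the labels' protocols. The values were normalized log2 ratios that the authors deposited; how the spots were scanned, corrected, filtered and normalized is not stated in the labels, and base 2 was assumed. The platform table gave 12771 probes 1 symbol each, all matched to a current gene by Entrez number, and the symbol of a probe named the row 11 further on (12760 rows). A mouse's value needed both arrays of its pair. Probes of a gene were averaged, and a gene was tested where 3 or more of 4 mice had a value, with limma 3.58.1 in R 4.3.3 (lmFit, eBayes, two-sided, Benjamini-Hochberg over all genes). Tests against 0 leave out the spread among wildtype mice. The number of mice, 4 per tissue, limits the precision. The fits were also run on simulated data, with changes larger than any member mean and independent noise in each mouse. No error shared through the pool was simulated, so that run cannot show how the fits handle values like the members'.

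The liver-minus-brain fit used the 8 mouse values; a second fit had the mouse as a block, since both tissues came from the same mice per the labels. Deviations of liver and brain from their group means had a Spearman's rho of 0.0712 (mouse 1), -0.0036 (mouse 2), 0.103 (mouse 3) and 0.0241 (mouse 4). Between different mice rho ran from -0.0988 (liver 3, brain 1) to 0.0726 (liver 2, brain 1), so the values overlapped. Members and lists were chosen with earlier results of these data known. Named genes were the 9 members; of the other pathway genes, the 6 with the smallest p in each comparison; of each immune marker list, the 2 largest means per tissue; and the 5 nearest profiles. Psmb9 and the lists of hepatocyte and endothelial markers were named for context. Lists of neuron, astrocyte and oligodendrocyte markers were also drawn up and are not described. Alternatives were removal of ratios over 10 in size, single dye orientations, centring, scaling, single arrays and all 4 mice. Others were each mouse left out, single probes, no row offset and robust eBayes.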

Additional observations from a re-analysis of the deposited data

Results flagged for a closer look

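Of the 16 groups of 4 mouse values tested among the 9 genes, 2 held a mouse whose gap to the nearest other, as a share of the range, exceeded Dixon's critical value; chance alone gives about 1 such group in 20. Tap1 in brain was at 0.613 in mouse 3, against -0.09 to 0.01 in the other brains (ratio 0.849). Cd74 in brain was at -0.10 in mouse 1, while the other 3 lay within 0.01 of 0 (ratio 0.918). The value of mouse 4 leaves out an array of the first probe at -2.09, and with it let in the brain mean was -0.20. Which mouse stands apart thus depends on leaving that array out. The value of mouse 3 joins probes at 0.31, -0.29 and -0.015.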

How the results depend on the processing

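No member passed the adjusted test under any of the alternatives run. On arrays with mutant RNA in Cy5 only, 5 members were above 0 in liver, and values of opposite sign were 0.41 for Irf7, 0.0888 for Bst2 and 0.0022 for Cd74 in liver, 0.64 for Irf9, -0.46 for Rsad2 and 0.47 for H2-Eb1 in brain, and 0.62 for Bst2, -0.17 for H2-Eb1 and 0.12 for Cd74 in the difference; 0 genes passed in the difference. With Cy3 only, 1 member was above 0 in liver, and the opposite signs were -0.35 for H2-Eb1 in liver, -0.12 for Irf7, 0.30 for Bst2, 0.0828 for Ifi35 and -0.11 for Tap1 in brain, and 0.49 for Irf9, -0.32 for Rsad2 and -0.19 for Ifi35 in the difference; 2 genes passed in brain and 2 in the difference. With a single array allowed, 1 member was above 0 in liver, H2-Eb1 was at -0.0598 in liver, Cd74 at 0.11 in the difference, and 1 gene passed in brain. With names taken at offset 0, the member median in liver was 0.0618 and 5 members were above 0; Irf9 was at 0.74, Irf7 at 0.0618, Tap1 at 0.0662, H2-Eb1 at -0.0206 and Cd74 at 0.27 in liver. In brain Irf9 was then at 0.12, Irf7 at -0.0915, Rsad2 at -0.24, Ifi35 at 0.0512 and H2-Eb1 at 0.38, and in the difference Irf9 at 0.61, Irf7 at 0.15, Ifi35 at -0.10, H2-Eb1 at -0.40 and Cd74 at 0.56. The offset decides which spot is read; for the other settings the cause was not tested.

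With all 4 mice required, 1 member of 8 was above 0 in liver and 0 genes passed in the difference; with single probes 4 of 12 were above 0 in liver. With ratios over 10 in size removed, 3 genes passed in brain and 2 in the difference. With scaling 2 passed in the difference, and with robust eBayes 1 in brain and 2 in the difference. With each mouse left out in turn (H2-Eb1 could then not always be fitted), the members above 0 numbered 1 to 2 in liver, 2 to 5 in brain and 1 to 2 in the difference. Their median ran from -0.26 to -0.07 in liver, -0.0768 to 0.0721 in brain (0.0710 without mouse 2) and -0.32 to -0.15 in the difference, and 0 to 2 genes passed in brain and 0 to 1 in the difference. Opposite signs without mouse 1 were Irf7 in liver (0.0030), Bst2 in brain (0.0435) and Rsad2 in the difference (-0.0668), the last also without mouse 2 (-0.0664), and without mouse 3 Rsad2 (-0.10) and Tap1 (-0.0575) in brain. With the mouse as a replicate block the median difference was -0.13, 1 gene passed, and no call on a member changed. Signal over background could not be examined.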
